A study of Saccharomyces cerevisiae with 8 samples.

Results

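The genes described here are 32 yeast genes of sugar breakdown and its reverse, chosen by name from the 6713 open reading frames in the tables. They comprise 3 hexose kinases, 5 genes of upper glycolysis, 9 of lower glycolysis, 8 of fermentation, 2 of gluconeogenesis, 3 transcriptional regulators and 2 of the glycerol branch. RNA came from 8 cultures of Saccharomyces cerevisiae in the BY4741 background, a laboratory haploid without LEU2, MET17 and URA3, in 4 groups of 2 biological replicates. The libraries titled [SMAUG+] inductant 1 and inductant 2, called inductants here, came from wild-type cells that had overexpressed VTS1 from a plasmid for 48 h in independent inductions, had lost that plasmid and had been passaged for several generations before RNA was taken. The naive group was wild type and untreated, and the deletion group was untreated and lacked VTS1; neither is labelled [SMAUG+]. All cultures were 50 ml grown to mid-exponential phase, at an OD600 of about 0.6. Each inductant group came from 1 induction and the deletion group from 1 genotype, so the replicate spread is that between cultures. Vts1 is the Smaug protein of yeast: it binds hairpins in RNA and promotes the decay of the bound transcripts, and the design asks how a past episode of its overexpression and its loss each left the transcriptome.

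Glycolysis converts glucose to pyruvate, and in growing budding yeast most of that pyruvate is fermented to ethanol even when oxygen is present. Many steps have isozymes: 1 copy is usually abundant during growth on glucose, and the others are held back until sugar runs low or the cell is stressed. The factors Gcr1, Gcr2, Rap1 and Tye7 drive transcription of the abundant glycolytic genes, whereas HXK1, GLK1 and many stress genes carry STRE elements, which the stress factors Msn2 and Msn4 bind. Gluconeogenesis runs the pathway backwards on non-sugar carbon and is shut off on glucose, and the glycerol branch drains an intermediate of upper glycolysis to balance redox state and to counter osmotic stress.

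The upstream sequences of 5 members are shown first because the results turn on these genes or because they carry the motif of their class. The sequences were taken from the RefSeq genome of build R64, and every one is given 5′ to 3′ on the coding strand. In HXK1 (YFR053C), GLK1 (YCL040W) and GPD1 (YDL022W) the capitals mark STRE letters, CCCCT on either strand. In GPM1 (YKL152C) they mark a Rap1 site, of which the seventh base may be any, and a Gcr1 core, CTTCC or its reverse complement GGAAG. HXK2 (YGL253W) held none of these letters. The stretches lie at chrVI:255500-255649 on the minus strand for HXK1, chrIII:50588-50687 on the plus strand for GLK1, chrVII:23535-23684 on the plus strand for HXK2, chrXI:164706-164805 on the minus strand for GPM1 and chrIV:411475-411574 on the plus strand for GPD1.
HXK1: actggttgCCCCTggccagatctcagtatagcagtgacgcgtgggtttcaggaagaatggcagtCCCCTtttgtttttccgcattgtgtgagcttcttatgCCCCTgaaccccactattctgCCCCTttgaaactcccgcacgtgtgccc
GLK1: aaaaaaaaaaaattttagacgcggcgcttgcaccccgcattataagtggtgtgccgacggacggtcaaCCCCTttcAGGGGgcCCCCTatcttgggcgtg
HXK2: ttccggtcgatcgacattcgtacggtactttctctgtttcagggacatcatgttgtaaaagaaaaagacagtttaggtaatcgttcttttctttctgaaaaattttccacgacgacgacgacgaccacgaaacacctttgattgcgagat
GPM1: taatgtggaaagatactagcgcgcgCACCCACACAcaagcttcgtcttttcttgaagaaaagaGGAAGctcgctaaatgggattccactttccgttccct
GPD1: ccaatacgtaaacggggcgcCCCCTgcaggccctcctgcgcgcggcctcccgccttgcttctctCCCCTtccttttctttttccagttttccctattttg

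Over the 600 bases upstream of the start codon, STRE letters occurred on either strand in 17 of the 32 members, against 39.7% of 5992 promoters of the same length. At least 2 matches were present in 7 members, against 10.8% of promoters. HXK1 had 5 matches, GLK1, TDH3 (YGR192C) and GPD1 had 3 each, and TDH1 (YJL052W), ADH2 (YMR303C) and GPD2 (YOL059W) had 2 each. The Rap1 site was found in 4 members, HXK1, TDH3, GPM1 and ENO1 (YGR254W), against 1.6% of promoters, and in GPM1 and ENO1 it lay within 50 bases of a Gcr1 core, as in 0.5% of promoters. The Gcr1 core alone was in 25 members and in 72.9% of promoters. In GPD1 and GPD2 a Gcr1 core overlapped an STRE. HXK2, PDC6 (YGR087C), GCR2 (YNL199C) and TYE7 (YOR344C) held no match to any of these motifs in this window. Matches to short letters are a description of the sequence and do not show binding.

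**Figure D1:**
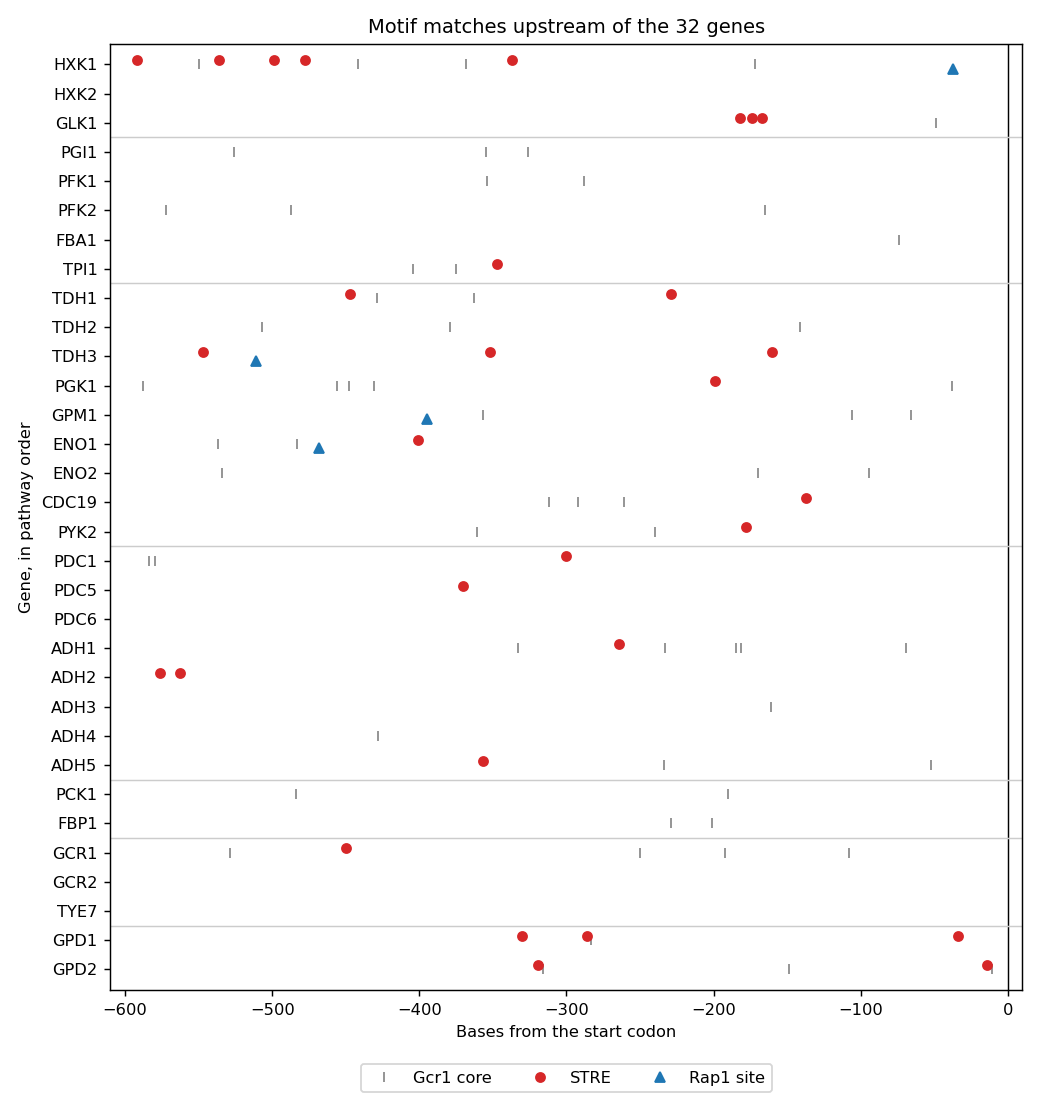
Positions of motif matches upstream of the start codon of each of the 32 genes, in bases, with the start codon at 0; grey ticks are Gcr1 cores, red circles STREs and blue triangles Rap1 sites. HXK1 carries 5 STREs and GLK1 3 within a short stretch, while HXK2, PDC6, GCR2 and TYE7 have no match.

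The hairpin that Smaug proteins bind was searched for in coding sequences as the loop letters CNGG with 0 to 3 further bases, closed by 5 pairs. It occurred in 2 of the 32 members, or 6.2%, against 7.0% of 5995 coding sequences. The matches lay in PGI1 (YBR196C), at chrII:613188-613201, and in TPI1 (YDR050C), at chrIV:556241-556254, both on the minus strand; capitals mark the loop letters.
PGI1: aagaaCTGGttctt
TPI1: tttcaCCGGtgaaa
HXK2 held no match, and sequence outside the coding region was not searched.

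Libraries held 18431474 to 27501966 estimated counts, and all 32 members passed the filter on low counts. VTS1 was at 24.7 and 25.0 CPM (counts scaled to library size, here with TMM) in inductant 1, 36.3 and 29.5 in inductant 2 and 22.5 and 19.9 in naive. In the deletion it had 0 and 2 counts. No library had any count for LEU2, MET17 or URA3. Of 5 genes specific to mating type a, STE2, BAR1 and STE6 were detected and MFA1 and MFA2 were listed at 0, with summed levels of 583.5 to 741.3 CPM; 4 genes of mating type alpha summed to 25.2 to 29.9 CPM.

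Together the members held 11.2% and 11.4% of the summed TPM, a level scaled by length and depth, in the naive libraries, 11.0% and 12.1% in inductant 1, 11.5% and 11.7% in inductant 2, and 9.67% and 9.79% in the deletion. The deletion libraries were the lowest and did not overlap any other group. In naive cells TDH3, the main glyceraldehyde-3-phosphate dehydrogenase, led at 22320 ± 970 TPM (SD, n = 2 here and below). It was followed by FBA1 (YKL060C, aldolase) at 13300 ± 104, ENO2 (YHR174W, the main enolase) at 11620 ± 161, PDC1 (YLR044C, the main pyruvate decarboxylase) at 10210 ± 759 and ADH1 (YOL086C, the main alcohol dehydrogenase) at 10190 ± 346. PDC1 and ADH1 did not differ beyond their spread. The lowest were ADH2 at 10.8 ± 1.9 TPM, FBP1 (YLR377C, fructose-1,6-bisphosphatase) at 7.42 ± 2.0 and PDC6 at 1.31 ± 0.15. ADH2 and FBP1 are genes that glucose represses.

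**Figure D2:**
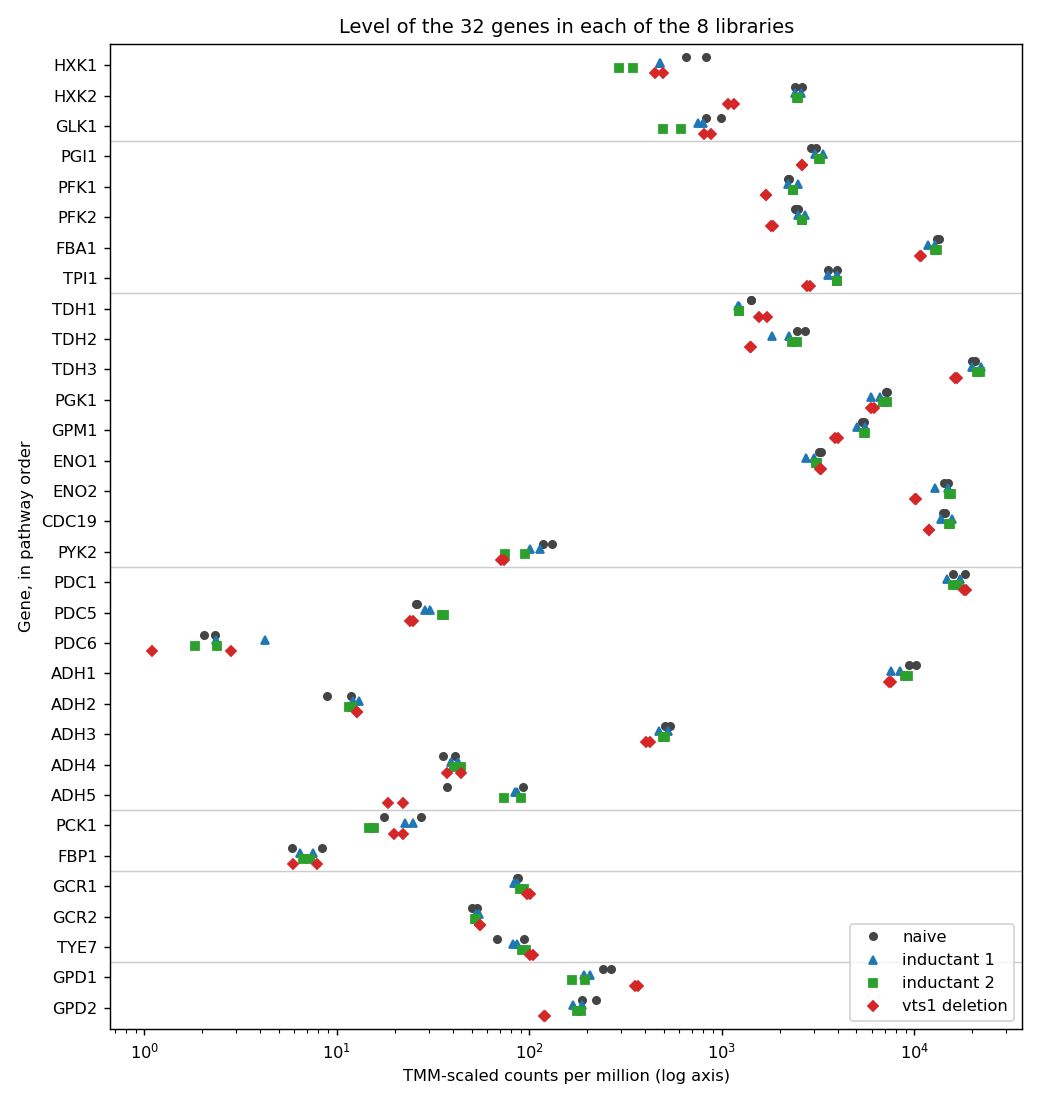
Level of each of the 32 genes in each of the 8 libraries, in TMM-scaled CPM on a log axis, with genes in pathway order and groups by symbol. The deletion libraries (red) lie left of all others for HXK2, PFK1, PFK2, TDH2, GPM1, ENO2 and GPD2, and right of all others for GPD1, while the inductants (blue and green) lie left of naive for HXK1, GLK1 and GPD1.

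Most of the glycolytic pathway was lower in the cells without VTS1. Of the 32 members, 17 fell and 2 rose in the deletion against naive (edgeR quasi-likelihood test, adjusted p under 0.05), where 14.6% of the 6230 genes tested fell and 11.7% rose. The median log2 fold change was -0.25 over the members and 0 over all genes. All 5 genes of upper glycolysis fell, as did 7 of 9 in lower glycolysis, whereas 2 of 8 fermentation genes, neither gluconeogenesis gene and none of the 3 regulators passed the test in the lower direction. Among genes above 1000 CPM, 13 of 16 members fell (81.2%, median -0.34), and so did 51 of 122 other genes (41.8%, median -0.22). At or under 1000 CPM, 4 of 16 members fell, against 13.8% of other genes. Of the 19 calls, 12 were kept without each single library and under every other setting. In limma on log2(TPM + 1) PGI1 (adjusted p = 0.247), PGK1 (0.0807) and CDC19 (0.0734) missed the threshold, and with only the groups compared PGI1 (0.0726) and TDH1 (0.0752) did. In a bulk culture, fewer cells that express a gene and less RNA per cell cannot be told apart.

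The largest fall among the abundant members was in HXK2, which encodes the main hexokinase in glucose and also takes part in glucose repression. HXK2 stood at 2405 and 2599 CPM in naive, 2408 and 2579 in inductant 1 and 2457 and 2498 in inductant 2. In the deletion it stood at 1078 and 1155 CPM. The 6 libraries with VTS1 overlapped each other, and both deletion libraries lay far below all of them. The log2 fold change in the deletion was -1.16 ± 0.07 (SE, edgeR adjusted p = 1.49e-06), against -0.01 in the inductants (adjusted p = 0.94). The inductants exceeded the deletion by 1.15 ± 0.06 (adjusted p = 4.87e-07). Leaving out any 1 library kept the value between -1.21 and -1.11, with an adjusted p of at most 0.000149.

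HXK1 and GLK1, the hexokinase and glucokinase genes that rise as glucose is used up, behaved differently from HXK2 and were the members that moved most in the inductants. HXK1 was at 654 and 828 CPM in naive, 476 and 475 in inductant 1, 293 and 346 in inductant 2 and 449 and 496 in the deletion. Every library of the other 3 groups was below both naive libraries. HXK1 fell by 0.93 ± 0.10 in the inductants (edgeR adjusted p = 0.000586) and by 0.65 ± 0.12 in the deletion (adjusted p = 0.00385), and both calls were kept without any 1 library. The inductants and the deletion did not differ past the threshold for HXK1 (-0.28, adjusted p = 0.056). That difference passed without inductant 2 replicate 2 (adjusted p = 0.0225), naive replicate 1 (0.00642) or naive replicate 2 (0.00672), and also without the filter on low counts (0.0467), in DESeq2 (0.0206), with the replicate block (0.00886) and with only the groups compared (0.0063). GLK1 was at 829 and 994 CPM in naive, 749 and 796 in inductant 1, 493 and 614 in inductant 2 and 803 and 876 in the deletion. Only the deletion overlapped naive. GLK1 fell by 0.48 ± 0.10 in the inductants (adjusted p = 0.0191), a call that was lost without inductant 1 replicate 1 (adjusted p = 0.075), inductant 1 replicate 2 (adjusted p = 0.0505) or naive replicate 2 (adjusted p = 0.0568). In the deletion GLK1 gave -0.12 (adjusted p = 0.49). For GLK1, 5.16% of its 31-base words also occur in YCL042W, a neighbouring reading frame, so a small part of its reads could be counted there.

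The make-up of the hexose kinase messages differed between groups. HXK2 supplied 60.7 ± 2.2% of their summed TPM in naive, 67.1 ± 0.5% in inductant 1, 74.4 ± 2.5% in inductant 2 and 46.5 ± 0.4% in the deletion. The 4 groups did not overlap, and the inductants and the deletion lay on opposite sides of naive. GLK1 supplied 21.4 ± 0.8% in naive, 20.12 ± 0.04% in inductant 1, 16.0 ± 1.8% in inductant 2 and 33.8 ± 0.1% in the deletion. HXK1 supplied 17.9 ± 1.4% in naive, 12.8 ± 0.6% in inductant 1, 9.60 ± 0.70% in inductant 2 and 19.7 ± 0.3% in the deletion. These shares are descriptions and were not tested. Coding sequences of HXK1 and HXK2 are 78.5% identical and share no 31-base word, so their counts are separate.

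**Figure D3:**
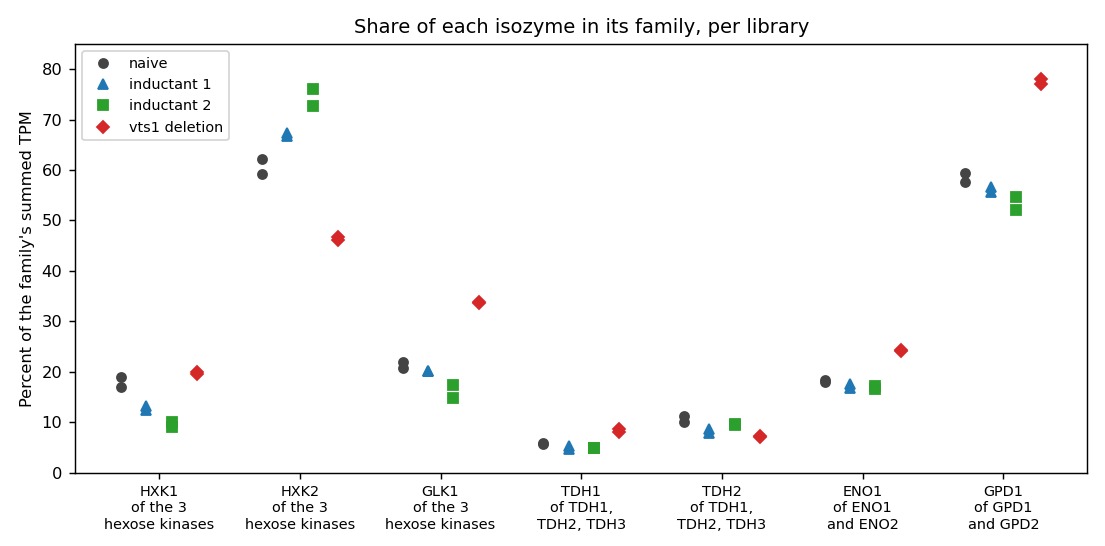
Share of each named isozyme in the summed TPM of its family, in percent, with 1 point per library and groups by symbol. HXK2 ranges from 46.2% and 46.8% in the deletion to 76.1% in inductant 2, and GPD1 has a mean of 58.6% in naive and 77.5% in the deletion.

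Upper glycolysis, from glucose-6-phosphate to the triose phosphates, fell as a block in the deletion. PFK1 (YGR240C) and PFK2 (YMR205C) encode the subunits of phosphofructokinase, the committed step. PFK1 was at 2201 and 2221 CPM in naive and 1694 and 1691 in the deletion, with 2200 to 2480 in the inductants. PFK2 was at 2396 and 2475 CPM in naive and 1844 and 1806 in the deletion, with 2472 to 2704 in the inductants. For both subunits the deletion lay below all other libraries. The falls were 0.39 ± 0.07 for PFK1 (edgeR adjusted p = 0.00213) and 0.42 ± 0.06 for PFK2 (adjusted p = 0.00104). TPI1, triose phosphate isomerase, fell by 0.42 ± 0.07 (adjusted p = 0.00213), from 3573 and 3956 CPM to 2766 and 2863. FBA1 fell by 0.30 ± 0.06 (adjusted p = 0.00506), from 13380 and 13110 CPM to 10700 and 10800. PGI1, phosphoglucose isomerase, showed the smallest fall, 0.20 ± 0.07 (adjusted p = 0.0459), from 2892 and 3098 CPM to 2597 and 2607. The FBA1 call was lost without either deletion library (adjusted p = 0.0759 and 0.0631). The PGI1 call was lost in 5 of 8 fits that left out 1 library: without either inductant 2 library, naive replicate 2 or either deletion library (adjusted p up to 0.228). In the inductants all 5 genes lay between -0.07 and 0.10 and none passed.

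In lower glycolysis, where ATP is made, isozymes moved apart in the deletion. TDH2 (YJR009C), a glyceraldehyde-3-phosphate dehydrogenase made mainly in growing cells, was at 2693 and 2448 CPM in naive, 1826 and 2220 in inductant 1, 2444 and 2321 in inductant 2 and 1399 and 1413 in the deletion. The deletion was below every other library. TDH2 fell by 0.87 ± 0.09 (edgeR adjusted p = 8.96e-05). TDH3 fell by 0.30 ± 0.07 (adjusted p = 0.0081), from 19920 and 20520 CPM to 16200 and 16630. TDH1, the form linked to stationary phase and stress, instead rose by 0.21 ± 0.06 (adjusted p = 0.0304), from 1410 and 1409 CPM to 1562 and 1706. In the inductants TDH1 was at 1207 and 1221 CPM and at 1223 in both libraries of inductant 2, a fall of 0.21 ± 0.05 (adjusted p = 0.0386). The 3 sets of libraries were therefore separate, and the inductants were below the deletion by 0.42 ± 0.05 (adjusted p = 0.000187). The rise of TDH1 in the deletion was lost without naive replicate 2 (adjusted p = 0.0535), deletion replicate 1 (0.0667) or deletion replicate 2 (0.286). Its fall in the inductants was past the threshold without naive replicate 2 (adjusted p = 0.0423) and lost without each of the other 7 libraries (0.069 to 0.0919). The TDH3 call was lost without deletion replicate 1 (adjusted p = 0.101) or 2 (0.0657). The TDH genes are near copies, with 95.8% identical coding bases between TDH2 and TDH3, and 26.3% of the 31-base words of TDH1, 50.6% of TDH2 and 43.2% of TDH3 are shared, so kallisto divided part of their reads by estimate.

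The enolase genes also separated. ENO2 fell by 0.53 ± 0.08 in the deletion (edgeR adjusted p = 0.000714), from 14960 and 14210 CPM in naive to 10070 and 10140. ENO1, its partner and less dependent on glucose, was at 3268 and 3205 CPM in naive and 3215 and 3257 in the deletion, a difference of 0.00 (adjusted p = 0.999). ENO1 thus made up 18.2 ± 0.3% of enolase TPM in naive and 24.3 ± 0.1% in the deletion. The pair has 94.8% identical coding bases and shares 38.8% of 31-base words, so this split too is partly an estimate.

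Further down, GPM1, phosphoglycerate mutase, fell by 0.46 ± 0.07 in the deletion (edgeR adjusted p = 0.000673), from 5320 and 5495 CPM to 3874 and 4015. PYK2 (YOR347C), a minor pyruvate kinase used at low glycolytic flux, fell by 0.77 ± 0.11 (adjusted p = 0.000846), from 118 and 130 CPM to 71.4 and 74.1. Smaller falls were seen for PGK1 (YCR012W), phosphoglycerate kinase, at 0.24 ± 0.07 (adjusted p = 0.0273) and for CDC19 (YAL038W), the main pyruvate kinase, at 0.26 ± 0.07 (adjusted p = 0.0202). CDC19 went from 14120 and 14350 CPM to 11960 and 11870, and its call was lost without naive replicate 2 (adjusted p = 0.0749), deletion replicate 1 (0.136) or deletion replicate 2 (0.14). The PGK1 call was lost without either naive library (adjusted p = 0.0772 and 0.054) or either deletion library (0.208 and 0.12). In the inductants PYK2 was at 100 and 113 CPM in inductant 1 and 74.9 and 94.6 in inductant 2, all below naive. That fall of 0.38 ± 0.09 (adjusted p = 0.0333) was past the threshold without inductant 2 replicate 2 (adjusted p = 0.00538) and lost without each of the other 7 libraries (0.0515 to 0.112).

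Of the 8 fermentation genes, 2 fell in the deletion, ADH1 and ADH3. PDC1 was at 18260 and 15920 CPM in naive and 18540 and 18010 in the deletion, so these groups overlapped (0.10, edgeR adjusted p = 0.448). PDC1, ENO1 and TDH1 were the 3 members above 1000 CPM that did not fall. ADH1, which regenerates NAD by making ethanol, fell by 0.39 ± 0.07 in the deletion (adjusted p = 0.00244), from 10170 and 9395 CPM to 7379 and 7531. In inductant 1, at 7546 and 8404 CPM, ADH1 fell by 0.29 ± 0.07 (adjusted p = 0.0443). That call was kept without naive replicate 2 (adjusted p = 0.0168) and lost without each of the other 7 libraries (0.0595 to 0.197). ADH1 shares 18.4% of its 31-base words with ADH2, but its estimated counts were whole in all 8 libraries. ADH3 (YMR083W), the mitochondrial form, fell by 0.33 ± 0.07 in the deletion (adjusted p = 0.00701), from 534 and 506 CPM to 404 and 422, a call lost without deletion replicate 1 (adjusted p = 0.0953) or 2 (0.0513).

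PDC5 (YLR134W), a minor pyruvate decarboxylase that yeast induces when PDC1 is missing or thiamine is scarce, was the only member called higher in the inductants. Of all genes tested, 2.97% were called higher there. PDC5 stood at 25.9 CPM in both naive libraries, 30.5 and 28.6 in inductant 1, 36.2 and 35.3 in inductant 2 and 24.8 and 24.0 in the deletion. The 4 groups did not overlap. It rose by 0.33 ± 0.08 in the inductants (edgeR adjusted p = 0.0357), and was past the threshold without naive replicate 2 (adjusted p = 0.0488) and lost without each of the other 7 libraries (0.0618 to 0.108). PDC5 shares 4.15% of its 31-base words with PDC1 and PDC6, and its estimated counts were not whole in any library. PDC1, at 14760 to 18540 CPM, shares 3.49% of its words with PDC5. The PDC5 level is therefore partly an estimate, and how much of its change comes from that division was not tested.

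ADH5 (YBR145W), a minor alcohol dehydrogenase, had the least repeatable naive level of all members. It was at 37.1 and 93.0 CPM in naive, 85.8 and 84.0 in inductant 1, 73.9 and 90.0 in inductant 2 and 18.5 and 21.9 in the deletion. The deletion was below every other library, but naive replicate 1 lay far from naive replicate 2. The log2 fold change in the deletion was -1.69 ± 0.48 and missed the threshold (edgeR adjusted p = 0.0701). Without naive replicate 1 it was -2.19 (adjusted p = 1.27e-06), and without naive replicate 2 it was -0.88 (adjusted p = 0.000861). DESeq2 called it (adjusted p = 0.00185), as did limma on log2(TPM + 1) (-1.41, adjusted p = 0.0338). In the inductants ADH5 gave 0.35 (adjusted p = 0.63), which became 1.17 (adjusted p = 0.000194) without naive replicate 2 and -0.16 (adjusted p = 0.464) without naive replicate 1. ADH2, ADH4 (YGL256W) and PDC6 stayed between 1.09 and 44.1 CPM in all libraries and did not pass in either comparison. The estimated counts of ADH2 were not whole in any library, and 18.4% of its 31-base words are shared with the far more abundant ADH1. Its level is therefore partly an estimate. ADH2, without naive replicate 1, gave 0.52 in the deletion (adjusted p = 0.0309).

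Gluconeogenesis showed no called change in edgeR with all libraries. PCK1 (YKR097W), phosphoenolpyruvate carboxykinase, was at 17.5 and 27.4 CPM in naive, 25.0 and 22.6 in inductant 1, 14.6 and 15.5 in inductant 2 and 22.2 and 19.7 in the deletion. Inductant 2 was below all other libraries, though naive replicate 1 was close to it. Against naive, DESeq2 called PCK1 lower in inductant 2, where edgeR with all libraries did not. The difference between inductants and naive was -0.25 ± 0.16 (edgeR adjusted p = 0.347), and -0.54 (adjusted p = 0.0185) without naive replicate 1. FBP1 stayed between 5.86 and 8.34 CPM, and its groups overlapped throughout.

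None of the 3 regulators passed the edgeR test against naive with all libraries. GCR1 (YPL075W), which encodes the main activator of glycolytic genes, was at 87.6 and 85.7 CPM in naive and 100.3 and 97.4 in the deletion, a difference of 0.19 ± 0.07 that missed the threshold (edgeR adjusted p = 0.0558) but passed in limma on log2(TPM + 1) (adjusted p = 0.0273). GCR2, its partner, stayed between 50.1 and 55.7 CPM in all libraries. TYE7 was at 94.2 and 67.5 CPM in naive and 103.8 and 101.1 in the deletion (0.34, adjusted p = 0.0808). TYE7 gave 0.61 without naive replicate 1 (adjusted p = 0.00012) and 0.12 without naive replicate 2 (adjusted p = 0.268). TYE7 in the deletion also passed with the replicate number as a block (adjusted p = 0.0321), in DESeq2 (0.0371) and in limma on log2(TPM + 1) (0.0435).

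**Figure D4:**
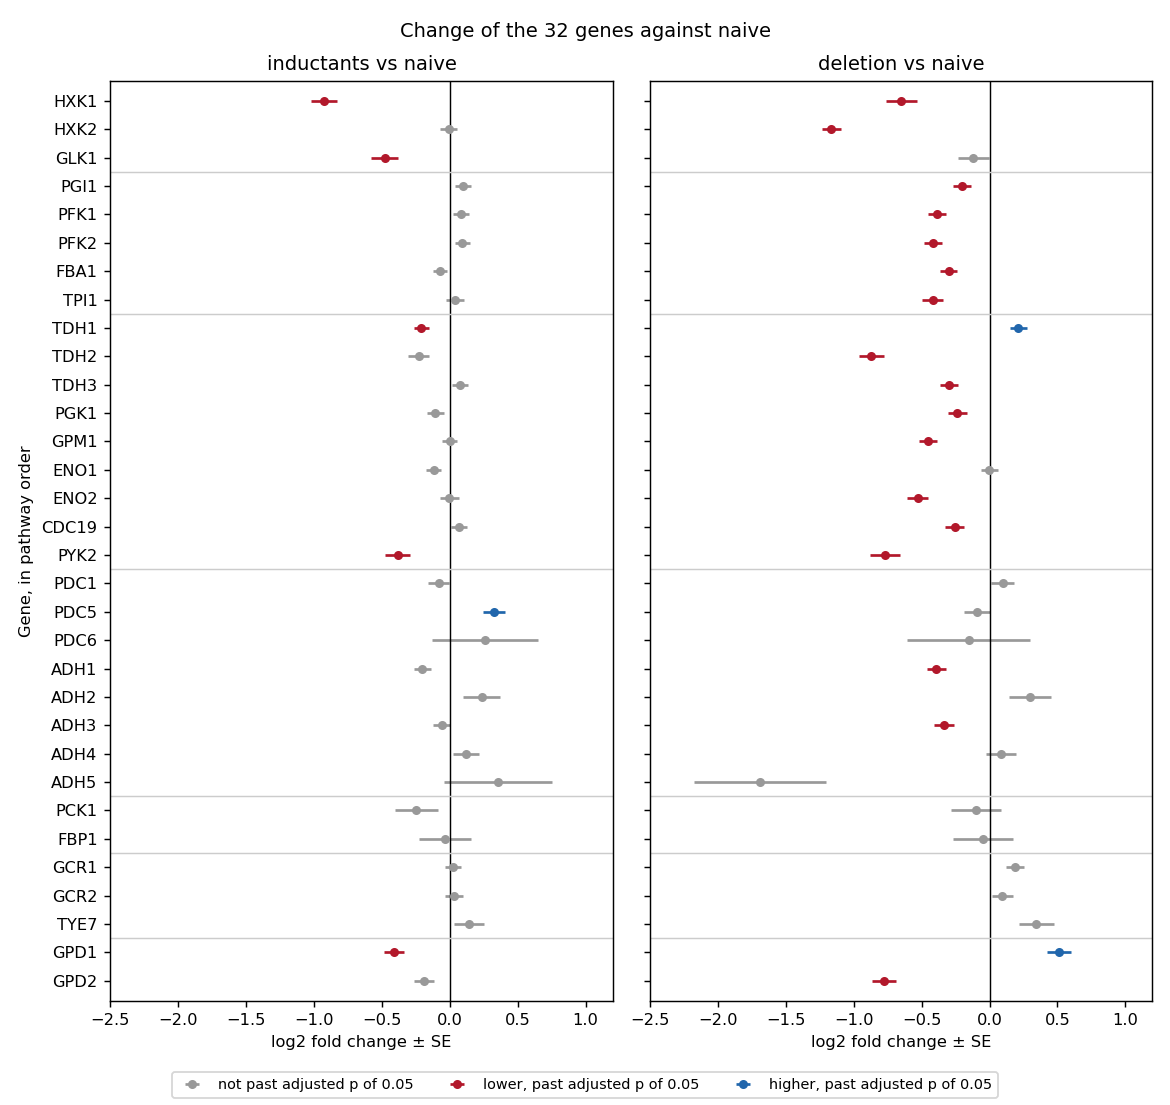
Log2 fold change with its standard error for each of the 32 genes, for the inductants against naive (left) and the deletion against naive (right), with calls at an adjusted p under 0.05 in colour. On the left only HXK1, at -0.93, lies beyond -0.5, while on the right 17 genes are called lower, led by HXK2 at -1.16, and TDH1 and GPD1 are called higher.

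The glycerol branch gave opposite changes in its 2 isozymes in the deletion. GPD1, glycerol-3-phosphate dehydrogenase of the osmotic stress response, was at 264 and 240.0 CPM in naive, 193 and 206 in inductant 1, 167 and 195 in inductant 2 and 353 and 366 in the deletion. The inductants were all below naive and the deletion above it. GPD1 rose by 0.51 ± 0.09 in the deletion (edgeR adjusted p = 0.00158) and fell by 0.41 ± 0.07 in the inductants (adjusted p = 0.0068). The inductants were below the deletion by 0.92 ± 0.07 (adjusted p = 6.77e-06). Each of these calls was kept without any 1 library, and the fall in the inductants missed the threshold in limma on log2(TPM + 1) (-0.34, adjusted p = 0.0661). GPD2, the form tied to redox balance without oxygen, was at 223 and 188 CPM in naive and 121 and 118 in the deletion, a fall of 0.78 ± 0.09 (adjusted p = 0.000175). In the inductants GPD2 was at 169 to 188 CPM and gave -0.19 (adjusted p = 0.144), or -0.31 without naive replicate 2 (adjusted p = 0.0107). GPD1 supplied 58.6 ± 1.3% of the pair's TPM in naive and 77.5 ± 0.7% in the deletion. The coding sequences are 75.4% identical and share no 31-base word. The estimated counts of GPD2 were whole in all 8 libraries, but those of GPD1 were not whole in any. Part of the GPD1 reads was therefore divided by estimate with a row that was not identified, as only annotated coding sequences were searched for shared words.

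In the inductants together, 5 members fell and 1 rose, against 5.6% and 2.97% of all genes tested. Those that fell were HXK1, GLK1, TDH1, PYK2 and GPD1, and the one that rose was PDC5. The median change over the members was -0.006, against -0.007 over all genes. Of the 6 calls, HXK1 and GPD1 were kept without each single library. In limma on log2(TPM + 1) GLK1 (adjusted p = 0.0925), TDH1 (0.125), PYK2 (0.134) and GPD1 (0.0661) missed the threshold, and with only the groups compared TDH1 (0.0836), PYK2 (0.0671) and PDC5 (0.0632) did. Among members above 1000 CPM, 1 of 16 fell, and 6 of 122 other genes did. Inductant 1 alone gave 0 members higher and 2 lower, HXK1 and ADH1, where 1.2% and 3.19% of all genes were called (edgeR). Inductant 2 alone gave 1 higher, PDC5, and 4 lower, HXK1, GLK1, PYK2 and GPD1, where 3.24% and 5.79% were called.

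For HXK1, GLK1, PYK2 and GPD1 the estimates were lower in inductant 2 than in inductant 1. HXK1 gave -0.64 ± 0.12 in inductant 1 (edgeR adjusted p = 0.0218) and -1.21 ± 0.12 in inductant 2 (adjusted p = 0.000322). The inductant 1 call for HXK1 was lost without either of its own libraries (adjusted p = 0.167 and 0.14). GLK1 gave -0.24 in inductant 1 (adjusted p = 0.271) and -0.72 in inductant 2 (adjusted p = 0.00584). PYK2 gave -0.22 (adjusted p = 0.28) and -0.55 (adjusted p = 0.013), and GPD1 gave -0.34 (adjusted p = 0.0508) and -0.48 (adjusted p = 0.00633). In inductant 2 the calls of PYK2 (adjusted p = 0.0988) and GPD1 (0.0869) were lost without its replicate 1, and that of PDC5 was lost without either of its libraries (up to 0.114). Compared directly, the inductants differed in 0 members (edgeR), where 0.449% of all genes were called in either direction. At an unadjusted p under 0.05 there were 8 (HXK1, GLK1, TDH2, PGK1, PYK2, PDC5, ADH1 and PCK1). All genes were not counted at this looser threshold, so the 8 have no background share and cannot be set against 0.449%. DESeq2 called 3, HXK1, GLK1 and PCK1, where it called 2.78% of all genes. With limma 0 members were called, and 0.0321% of all genes. HXK1 differed by 0.57 (edgeR adjusted p = 0.0753) and GLK1 by 0.48 (adjusted p = 0.112). Without naive replicate 1, HXK1 (adjusted p = 0.00528), GLK1 (0.0422) and PCK1 (0.0105) passed, and without naive replicate 2 they did so too (0.00544, 0.0356 and 0.0129). Without inductant 2 replicate 2, GLK1 alone passed (0.0374).

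Set directly against the deletion, the inductants had 17 members higher and 4 lower, where 18.7% and 19% of all genes were called. The 4 lower were GLK1, TDH1, GCR1 and GPD1. The GCR1 call was lost in DESeq2 and in 5 of the 8 fits that left out 1 library, and the GLK1 call in 3 of them. Among the higher members, ADH5 was lost in 6 of these fits and ADH1 in 5. The median was 0.25 over the members and -0.02 over all genes. This comparison, like the others, shares libraries with those above, so its values are the same measurements seen from another side. Without either deletion library it called fewer members, and the share of all genes called was lower too. The same held for the deletion against naive, where every call that remained was among the 19 made with every library.

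Genes that mark the approach of glucose exhaustion were read beside these results, because HXK1, GLK1 and PYK2 rise at that stage. All 10 were detected, and none was at 0 throughout. Their summed level was 1395 to 1678 CPM in naive, 808 to 873 in inductant 1, 545 to 616 in inductant 2 and 1308 to 1328 in the deletion. In the inductants 4 fell and 0 rose, against 5.6% and 2.97% of all genes. In the deletion 6 fell and 3 rose, against 14.6% and 11.7% of all genes: the heat shock genes HSP12 and HSP26 and the catalase gene CTT1 rose, and among those that fell were GSY1, a glycogen synthase, and RGI1. HSP12 went from 25.9 and 32.2 CPM in naive to 392 and 377 in the deletion. RGI1 went from 175 and 192 CPM in naive to 15.4 and 21.9. Inductant 2 was lowest in HXK1, in GLK1 and in the marker sum, while the deletion had HXK1 near the level of inductant 1. The marker sum of the deletion, just under that of naive, joined the 3 rises with the 6 falls, so it does not describe the single markers. Against naive, the median log2 fold change over the 10 was -0.65 in the deletion, -0.29 in inductant 1 and -0.94 in inductant 2. The part of culture stage in these results was not tested.

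Other genes of the same pathways were read from lists written for this purpose. Among 14 tested glycolytic and fermentative genes outside the set, 4 rose and 3 fell in the deletion, against 11.7% and 14.6% of all genes. EMI2, a paralogue of GLK1, was at 325 and 328 CPM in naive, 162 and 202 in inductant 1, 131 and 149 in inductant 2 and 105 and 128 in the deletion. All 6 other libraries were below naive. EMI2 fell by 1.49 ± 0.12 in the deletion (edgeR adjusted p = 6.08e-05) and fell by 1.03 ± 0.10 in the inductants (adjusted p = 0.000427), and both calls were kept without any 1 library. ERR1 and ERR2, enolase-related genes near the ends of chromosomes, had identical values in every library, so they are 1 measurement counted as 2 of the 14 genes, and rose by 1.58 in the deletion from under 1 CPM (adjusted p = 0.0131). That call was lost without naive replicate 1 or either deletion library (adjusted p up to 0.0744). ADH7 fell by 0.95 (adjusted p = 0.0311), a call lost without either inductant 1 library, naive replicate 2 or either deletion library (up to 0.183). SFA1, another of the 4 that rose, gave 0.28 (adjusted p = 0.0455), a call lost in DESeq2 (0.064), with only the groups compared (0.0658) and in 7 of the 8 fits that left out 1 library (up to 0.22). In limma on log2(TPM + 1) the deletion calls of ERR1, ERR2 and ADH7 were also lost. PFK27, which makes the phosphofructokinase activator fructose-2,6-bisphosphate, rose by 0.43 ± 0.08 in the deletion (adjusted p = 0.00223). In the inductants 3 of 14 fell and 0 rose, against 5.6% and 2.97% of all genes: EMI2, FBP26, a fructose-2,6-bisphosphatase, by 0.57 ± 0.08 (adjusted p = 0.0013), and PFK27, which fell by 0.34 ± 0.07 (adjusted p = 0.0117), a call lost in limma on log2(TPM + 1) (0.0678). PFK27 was at 66.6 and 67.4 CPM in naive, 49.2 to 58.0 in the inductants and 89.0 and 91.8 in the deletion. The inductants were below the deletion (-0.77, edgeR adjusted p = 1.31e-05). FBP26 was also called lower in the deletion (edgeR), at 32.68 and 34.65 CPM against 47.79 and 52.62 in naive.

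Of 11 other gluconeogenic and glyoxylate genes, 1 rose and 2 fell in the deletion, shares near the 11.7% and 14.6% of all genes. CAT8, an activator of gluconeogenic genes, fell by 0.53 ± 0.10 (edgeR adjusted p = 0.00363; 0.0697 in limma on log2(TPM + 1)), and MDH2, cytosolic malate dehydrogenase, fell by 0.39 ± 0.08 (adjusted p = 0.00606). ERT1, a transcription factor, rose by 0.49 ± 0.15 (adjusted p = 0.0327). In limma on log2(TPM + 1) the MDH2 call was lost, and with only the groups compared the ERT1 call was lost. The MDH2 call was lost without either deletion library (adjusted p up to 0.0618), and the ERT1 call without naive replicate 1 or either deletion library (up to 0.14). In the inductants 3 of 11 fell and 0 rose, against 5.6% and 2.97% of all genes. CAT8 and ICL1, isocitrate lyase, each fell by 0.34 (adjusted p = 0.0352 and 0.0303), and MDH2 fell by 0.27 (adjusted p = 0.0406). All 3 were lost in limma on log2(TPM + 1) and with only the groups compared. Each of these 3 calls was lost in 6 of the 8 fits that left out 1 library, among them those without naive replicate 2, inductant 1 replicate 1 and either deletion library, with an adjusted p up to 0.143.

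The GID ubiquitin ligase degrades gluconeogenic enzymes when glucose returns. Of its 8 genes, 1 rose and 4 fell in the deletion, against 11.7% and 14.6% of all genes. VID24, the substrate receptor, rose by 0.42 ± 0.07 (edgeR adjusted p = 0.00142). GID8 fell by 0.67 ± 0.15 (adjusted p = 0.0124), FYV10 by 0.52 ± 0.11 (adjusted p = 0.0063) and RMD5 by 0.34 ± 0.10 (adjusted p = 0.0269). In limma on log2(TPM + 1) and with only the groups compared, the RMD5 call was lost. The GID8 and RMD5 calls were lost without naive replicate 2 or either deletion library (adjusted p up to 0.0906 and 0.178), and the FYV10 call without deletion replicate 1 (0.0832). In the inductants 1 of 8 fell, against 5.6% of all genes: FYV10 by 0.37 ± 0.09 (edgeR adjusted p = 0.0349). This call was lost without either inductant 1 library, inductant 2 replicate 1, naive replicate 1 or either deletion library. It was also lost in limma on log2(TPM + 1) and with only the groups compared.

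Among 10 other glycerol genes, 2 rose and 2 fell in the deletion, against 11.7% and 14.6% of all genes. GPP2, glycerol-3-phosphatase, which follows GPD1 in the same branch, rose by 0.93 ± 0.09 (edgeR adjusted p = 6.09e-05), from 96.1 and 116.5 CPM in naive to 208 and 197. GUT2, the mitochondrial glycerol-3-phosphate dehydrogenase, rose by 0.50 ± 0.09 (adjusted p = 0.00213). GCY1, a glycerol dehydrogenase, fell by 0.72 ± 0.17 (adjusted p = 0.0132) and GUT1, glycerol kinase, by 0.38 ± 0.08 (adjusted p = 0.00652). The GCY1 call was lost without naive replicate 2 or either deletion library (adjusted p up to 0.0954) and the GUT1 call without deletion replicate 2 (0.0819). In the inductants 2 of 10 fell, against 5.6% of all genes: GCY1 by 0.86 ± 0.14 (adjusted p = 0.00643) and GUT2 by 0.39 ± 0.08 (adjusted p = 0.0106), and both were kept without any 1 library. The GUT2 call in the inductants was lost in limma on log2(TPM + 1) (adjusted p = 0.1), as were the GCY1 and GUT1 calls in the deletion.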

How the data were processed

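Expression was measured by RNA-seq after removal of rRNA in 8 libraries, 2 per group, with groups and replicate numbers from the sample titles. Per the submitters' processing notes, reads were quantified with kallisto against build R64; its version, the layout and the use of strand were not given in the sources used here, so overlapping genes cannot be told apart. The deposited tables hold kallisto's estimated counts per gene, which need not be whole. TPM, per the file headers, comes from the same read assignment made by the authors. Row lengths, given per the file headers, are coding lengths.

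The 32 members were taken by systematic name, and all have the same coding length in the RefSeq annotation of R64. Estimated counts were rounded and tested with edgeR 4.0.16 (R 4.3.3): TMM scaling, filterByExpr by group (6230 genes kept), robust quasi-likelihood test, 1 mean per group over 8 libraries, 4 residual degrees of freedom, two-sided, Benjamini-Hochberg adjustment over all genes tested and a threshold of 0.05. Fold changes carry standard errors, and levels the SD of replicates. Alternatives were RLE size factors, no filter, DESeq2 1.42.0, limma 3.58.1 on log2(TPM + 1), the replicate number as a block, only the groups compared, and each library left out, where a lone sample is assumed to vary like the other groups. The procedure was tested on simulated data. Depth was 18431474 to 27501966 estimated counts. A count of 0 allows up to 3 counts, or 0.109 to 0.163 CPM, for counting error only.

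Of the other lists, up to 4 genes per list and comparison with the largest called change were named. HSP12, HSP26, CTT1, GSY1, RGI1, SFA1, PFK27 and FBP26 in the deletion were named after their values were seen. Members and lists were chosen with earlier results of these data known, so no list was tested as a whole. Promoter stretches end at least 151 bases before the start codon.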

Additional observations from a re-analysis of the deposited data

How the results depend on the processing

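The number of members called was within 1.5 times that reported under RLE size factors in all 6 comparisons, and no called change reversed. For the inductants against naive, 6 calls became 2 in limma on log2(TPM + 1) and 3 with only the groups compared. The share of all genes called went from 8.57% to 3.98% and 5.48%. For inductant 1 against naive, 2 became 4 without the filter on low counts, 4 in DESeq2, 0 in limma and 1 with only the groups compared. Among all genes, 4.4% became 4.96%, 7.29%, 0.257% and 1.76% in the same order. For inductant 2 against naive, 5 became 3 in limma and 2 with only the groups compared, while 9.04% of all genes became 3.96% and 3.74%. Between the inductants, 0 became 3 in DESeq2, 2 with the replicate block and 3 with only the groups compared. Here 0.449% of all genes became 2.78%, 2.25% and 1.83%. The cause was not tested. Leaving out 1 library gave 2 to 8 calls for the inductants against naive, 12 to 21 for the deletion against naive, 0 to 6 for inductant 1, 2 to 7 for inductant 2, 0 to 3 between the inductants and 12 to 24 for the inductants against the deletion.

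Replicate numbers do not pair the cultures: the differences between replicates correlated between groups by -0.113 to 0.112. With the replicate number as a block, 6 members were called for the inductants against naive and 20 for the deletion against naive. Inductant 1 against naive gave 3, inductant 2 against naive 5, the 2 inductants 2, and the inductants against the deletion 22. In that order, 10.4%, 28%, 6.77%, 10.1%, 2.25% and 39.4% of all genes were called. On the TPM scale the median of all genes shifted by 0.09 in the deletion against naive, and the members' median there was -0.16. Of 2688 member values under alternatives, 169 changed sign with neither value past the threshold. With 2 cultures per group, small changes of low genes such as PDC6 were not detectable at this precision.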
